A study of Mus musculus with 7 samples.

Results

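Syndecans and glypicans are the cell-surface proteoglycans that carry heparan sulfate, and the 10 mouse genes that encode them (Sdc1 to Sdc4 and Gpc1 to Gpc6) were followed in the atrioventricular canal of Hand2 null and wild-type embryos. The 10 symbols were taken as a family by name, each had a row among the 23284 genes of the count tables, and 9 passed the filter on low counts, all except Gpc5. The canal, the narrow part of the heart tube in which the valves begin, was dissected from outbred NMRI embryos of 18 to 23 somites, a stage range that the labels begin at embryonic day 9.0 and end short of the day 9.5 given in the sample titles. The null group (Hand2 d/d) lacks the whole coding part of Hand2 through a germline deletion made with Cre, so every tissue of these embryos is mutant, and the other group was wild type. Each library was made from 4 pooled canals, with somite stage and the ratio of the sexes described as balanced between pools. The 4 null libraries (replicates 1 to 4) were compared with 3 wild-type libraries (replicates 2 to 4), since a planned wild-type pool was not sequenced for its RNA quality. No label says whether pools shared litters, so p-values measure the spread between these pools.

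Heparan sulfate is a long sulfated sugar chain that binds growth factors, morphogens and matrix proteins and presents them to their receptors. Syndecans span the membrane and link the matrix to the actin cytoskeleton through a short cytoplasmic tail, whereas glypicans are held in the outer membrane leaflet by a lipid anchor and can be released from it. In the heart cushions, heparan sulfate proteoglycans are known as co-receptors for FGF, BMP and WNT ligands, and the jelly between the canal's muscle and endocardium is rich in other proteoglycans.

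Libraries held 27905601 to 44860753 reads in genes, and levels are given as CPM, each count divided by the gene reads of its library and scaled to 1000000. Hand2, the check of the labels, had 7 to 26 reads in the null libraries and 1194 to 2123 in the wild-type ones. Markers fixed for the canal muscle (7 of 7) and for endocardium (7 of 7) had reads in every library, so the tissue matched its label, while the neural crest genes Sox10 and Foxd3 were at 0 in 2 and 5 libraries and reached at most 0.154 and 0.0358 CPM. Null replicate 2 stood apart by its share of reads in no gene (14.2%, against 7.31% to 9.998% in the other libraries), and wild-type replicate 4 by its blood transcripts (a summed 22038 CPM for 5 genes, against 5602 to 14510 CPM in the others). Values with these 2 libraries left out are given where they change a call. Null replicate 3 stood farthest out on the second principal component (21.1% of the variance; a score of 45.6, against -28.6 to 18.3 in the others), and without it 946 genes were called higher and 652 lower, against 587 and 305 with all libraries.

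Sdc4 was the member that rose. Syndecan-4, found in most tissues, sits at focal adhesions, where its tail binds and activates protein kinase C alpha. Sdc4 had 292, 284, 279 and 170.0 CPM in null replicates 1 to 4, and 92.7, 76.0 and 97.5 CPM in wild-type replicates 2 to 4. The groups did not overlap, and the null library with the least Sdc4, replicate 4, still lay well above the highest wild-type library. The mean was 256 ± 57.8 CPM in the null (SD, n = 4) and 88.7 ± 11.3 CPM in wild type (SD, n = 3). The log2 fold change was 1.52 (SE 0.199, edgeR adjusted p = 0.00106), a 2.86-fold rise with a 95% interval of 2.12 to 3.86. It was called with any 1 library left out (log2 fold change 1.42 to 1.66), the highest being that without null replicate 4.

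Sdc3 fell. Syndecan-3 is best known from neural tissue and developing muscle and cartilage. Its level was 8.36, 12.4, 10.05 and 8.32 CPM in null replicates 1 to 4 and 16.7, 16.1 and 14.0 CPM in wild-type replicates 2 to 4, without overlap. The means were 9.79 ± 1.93 (SD, n = 4) and 15.6 ± 1.40 CPM (SD, n = 3). The fit gave a 1.62-fold fall, a log2 fold change of -0.70 with an SE of 0.181 (edgeR adjusted p = 0.0432). The fall lay close to the threshold of 0.05. Leaving out 1 library ended the call in 4 of 7 cases, with an edgeR adjusted p of 0.106 (null replicate 1 left out), 0.0638 (null replicate 4), 0.184 (wild-type replicate 2) and 0.157 (wild-type replicate 3). It was 0.0553 with null replicate 2 and wild-type replicate 4 both left out, and 0.151 with the summed Y-linked level of each library as a covariate. The antisense transcripts Gm12970 and Gm26716 overlap the annotated span of Sdc3 and have no row of their own here. Whether they share exons with Sdc3 was not examined, and without strand information reads in any shared exon cannot be told apart.

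The promoters of these called members are shown because they are the sequences next to the transcripts that passed the test, in a comparison of embryos with and without a basic helix-loop-helix factor, a class that binds the E-box CANNTG. They are the 250 bases before the annotated start, 5′ to 3′ on the gene's strand, from RefSeq on build GRCm38.p6 (the counts were made on mm9), at chr2:164443189-164443438 on the minus strand for Sdc4 and chr4:130792287-130792536 on the plus strand for Sdc3. Capitals mark the GC box GGGCGG on either strand.
Sdc4: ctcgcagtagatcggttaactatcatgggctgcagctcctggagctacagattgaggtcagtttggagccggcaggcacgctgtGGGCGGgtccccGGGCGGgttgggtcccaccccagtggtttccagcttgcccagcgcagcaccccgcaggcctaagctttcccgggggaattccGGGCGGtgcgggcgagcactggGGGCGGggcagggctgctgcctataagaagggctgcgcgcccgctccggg
Sdc3: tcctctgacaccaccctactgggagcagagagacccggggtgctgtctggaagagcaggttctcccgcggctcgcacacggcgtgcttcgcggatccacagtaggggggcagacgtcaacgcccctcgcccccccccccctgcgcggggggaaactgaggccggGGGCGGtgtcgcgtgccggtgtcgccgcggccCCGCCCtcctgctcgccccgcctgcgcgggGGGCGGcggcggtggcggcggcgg
The Sdc4 window held 4 GC boxes and the Sdc3 window 3, while 32.7% of 32851 such windows in the table held at least 1. Neither window held an E-box CANNTG, which 66.2% of all windows held, or the core ACGTG that hypoxia-inducible factors bind (either strand), which 16.6% held. Of the 10 members, 7 matched the promoter table. The E-box was in 2 of these 7 windows (Sdc1 and Gpc2), ACGTG in 0 and the GC box in 7. Sdc2, Gpc1 and Gpc6 had no entry.

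Sdc1 and Sdc2 did not pass the test, and their values lay on opposite sides of wild type. Syndecan-1 is the main syndecan of epithelia, and Sdc1 had 8.25, 11.7, 15.3 and 17.7 CPM in null replicates 1 to 4 against 26.04, 20.4 and 19.7 CPM in wild-type replicates 2 to 4. All 4 null libraries were below all 3 wild-type libraries, with the widest relative spread among null libraries of the 9 tested members (a coefficient of variation of 31.4%). The log2 fold change was -0.76 (SE 0.235, edgeR adjusted p = 0.0759, 95% interval -1.27 to -0.25). The call was made without null replicate 3 (-0.85, adjusted p = 0.0435), without null replicate 4 (-0.93, 0.0318), and by DESeq2 on all libraries (-0.77, 0.022). Foregut epithelium can remain on a dissected heart. The 5 epithelial genes (Epcam, Cdh1, Foxa2, Shh and Cldn6) summed to 1.29 to 16.03 CPM in null and 1.76 to 8.58 CPM in wild-type libraries, with 0 of the 3 tested members called and Shh at 0 in 4 libraries. Null replicate 4 had both the most of these markers and the most Sdc1 among null libraries, and their part in the Sdc1 values was not tested.

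Syndecan-2, the syndecan of fibroblasts and endothelium, had Sdc2 levels of 81.6, 79.2, 62.5 and 82.6 CPM in null replicates 1 to 4 and 58.0, 43.6 and 72.4 CPM in wild-type replicates 2 to 4. Null replicate 3 was below wild-type replicate 4, so the groups overlapped. The log2 fold change was 0.38 (SE 0.174, edgeR adjusted p = 0.198, 95% interval 0.01 to 0.76), so a rise of up to 1.70-fold is within the interval.

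**Figure D1:**
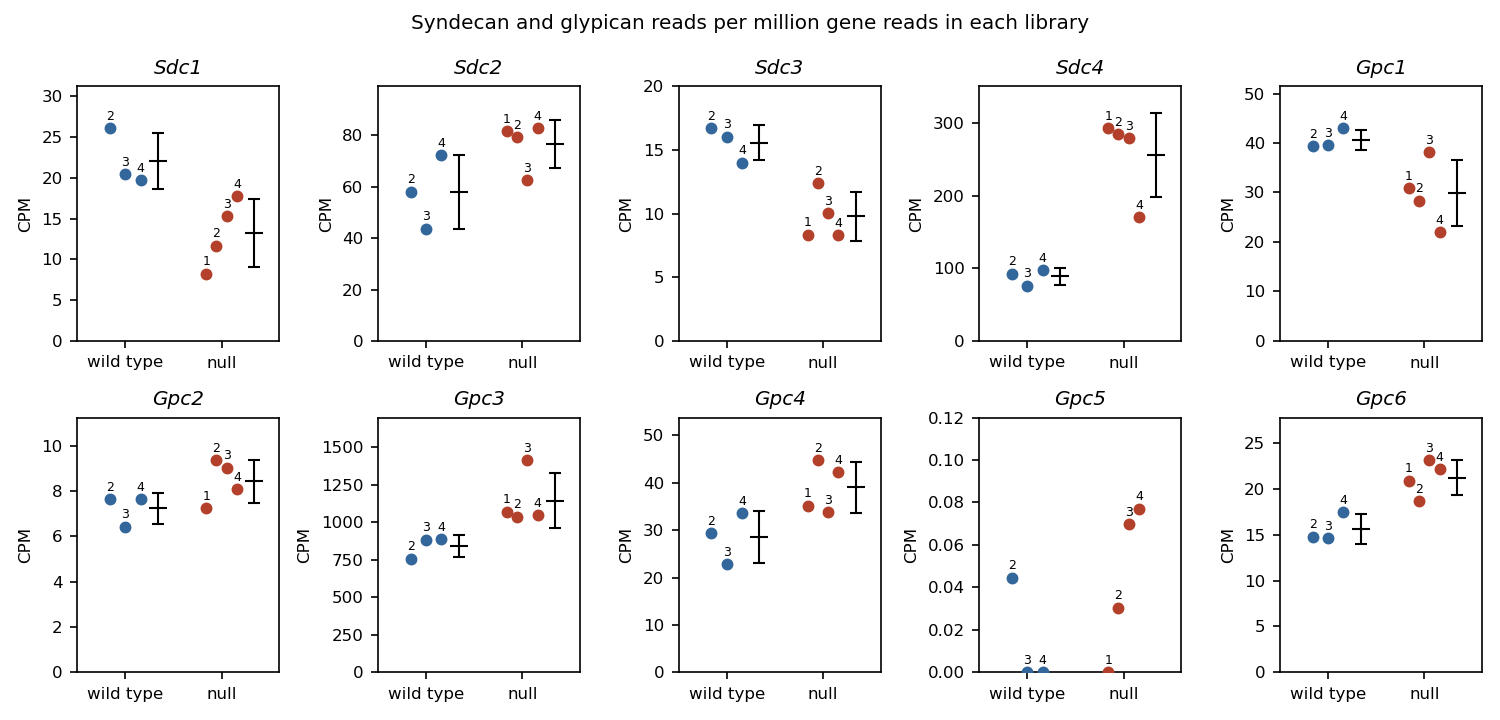
Level in CPM (vertical axis from 0, a scale for each gene) for the 10 members in 3 wild-type libraries (blue) and 4 null libraries (red), with the replicate number at each point and the mean ± SD as a black bar beside each group (no bar for Gpc5, which had 0 to 3 reads a library). Sdc4 is 170.0 to 292 CPM in the null and 76.0 to 97.5 CPM in wild type, and Sdc1, Sdc3 and Gpc1 are lower in the 4 null libraries than in any wild-type library.

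The proportions of syndecan reads within a library were drawn from the values above, without length correction, to compare libraries. Sdc4 reads outnumbered Sdc3 reads 20.4 to 35.0 times in null and 4.73 to 6.96 times in wild-type libraries. Sdc4 reads outnumbered Sdc1 reads 9.59 to 35.4 times in null and 3.56 to 4.96 times in wild-type libraries. The read ratio of Sdc4 to Sdc2 was 2.06 to 4.46 against 1.35 to 1.74. None of the 3 ratios overlapped between genotypes, and these ratios within a library do not depend on the scaling between libraries. All 3 share Sdc4, which was higher in every null library. Sdc3 and Sdc1 were lower in every null library, so the separation of their ratios follows from those values and adds no separate result.

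Of the 5 tested glypicans 0 passed, with log2 fold changes from -0.46 to 0.43. Glypican-3 restrains growth, and its loss causes overgrowth with heart defects in people and mice. Gpc3 was 1072, 1039, 1415 and 1049 CPM in null replicates 1 to 4 and 757, 885 and 886 CPM in wild-type replicates 2 to 4. Each null library lay above each wild-type one, and null replicate 3 was far above the other 3 null libraries. The means were 1144 ± 182 (SD, n = 4) and 843 ± 74.4 CPM (SD, n = 3), for a log2 fold change that was 0.43 (SE 0.16, edgeR adjusted p = 0.127), and 0.29 without null replicate 3 (adjusted p = 0.18). An antisense gene that overlaps Gpc3, A630012P03Rik, had 0.588 to 6.39 CPM, another, Gm14582, has no row, and unstranded reads in the overlaps cannot be told apart.

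Gpc4, whose product acts in BMP and WNT signalling, is the neighbour of Gpc3 on the X chromosome. It had 35.2, 44.8, 33.8 and 42.2 CPM in null replicates 1 to 4 and 29.4, 22.8 and 33.5 CPM in wild-type replicates 2 to 4. The lowest null library was just above the highest wild-type library, and the log2 fold change was 0.43 (SE 0.161, edgeR adjusted p = 0.127). The read ratio of Gpc3 to Gpc4 averaged 30.1 ± 8.44 over null (SD, n = 4) and 30.3 ± 7.33 over wild-type libraries (SD, n = 3), and single libraries ranged from 23.2 to 41.8. Both genes are X-linked, so the sex make-up of the pools was set beside them. The summed level of 4 Y-linked genes was 104 to 169 CPM in null and 80.9 to 136 CPM in wild-type libraries. It thus varied between pools that were described as balanced for sex. With this level as a covariate the log2 fold changes were 0.41 for Gpc3 and 0.36 for Gpc4 (edgeR adjusted p = 0.286 and 0.313).

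Glypican-6, required for limb bone growth, had Gpc6 levels of 20.9, 18.7, 23.1 and 22.2 CPM in null replicates 1 to 4 and 14.8, 14.6 and 17.5 CPM in wild-type replicates 2 to 4. The groups did not overlap, and the log2 fold change was again 0.43 (SE 0.16, edgeR adjusted p = 0.127). For Gpc3, Gpc4 and Gpc6 the 95% interval ran from 0.08 to 0.77 or 0.78, a difference of 1.06-fold to 1.71-fold or 1.72-fold.

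Gpc1 went the other way in its values. Glypican-1, a co-receptor for FGF, had Gpc1 levels of 30.9, 28.4, 38.2 and 22.01 CPM in null replicates 1 to 4 and 39.4, 39.6 and 42.9 CPM in wild-type replicates 2 to 4. The wild-type libraries lay close together, the null libraries were spread, and null replicate 3 was just under the lowest wild-type library. The log2 fold change was -0.46 (SE 0.187, edgeR adjusted p = 0.157), and -0.61 with a call (adjusted p = 0.0339) without null replicate 3. Ankmy1, which overlaps the end of Gpc1 on the other strand, had at most 2 reads in a library. The antisense transcripts Gm29481 and Gm29480 overlap the annotated span of Gpc1 and have no row. Whether they share exons with Gpc1 was not examined, and unstranded reads in any shared exon cannot be told apart. Gpc3 reads outnumbered Gpc1 reads 34.7 to 47.6 times in null and 19.2 to 22.4 times in wild-type libraries, without overlap. This separation follows from Gpc3 being higher and Gpc1 lower in every null library, and adds no separate result.

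Gpc2, mostly a gene of developing neurons, had 7.26, 9.38, 9.03 and 8.09 CPM in null replicates 1 to 4 and 7.65, 6.43 and 7.63 CPM in wild-type replicates 2 to 4. The groups overlapped, and the log2 fold change was 0.20 (SE 0.18, edgeR adjusted p = 0.533, 95% interval -0.19 to 0.59). The annotation also has Gm43720, a coding gene on the same strand that overlaps Gpc2 and has no row here. Gpc5, the neighbour of Gpc6 on chromosome 14, had 0, 1, 2 and 3 reads in null replicates 1 to 4 and 2, 0 and 0 reads in wild-type replicates 2 to 4. These counts are at or under the limit of 3 reads (0.0669 to 0.108 CPM, counting error only) that a count of 0 allows, so no difference was detectable at this depth.

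**Figure D2:**
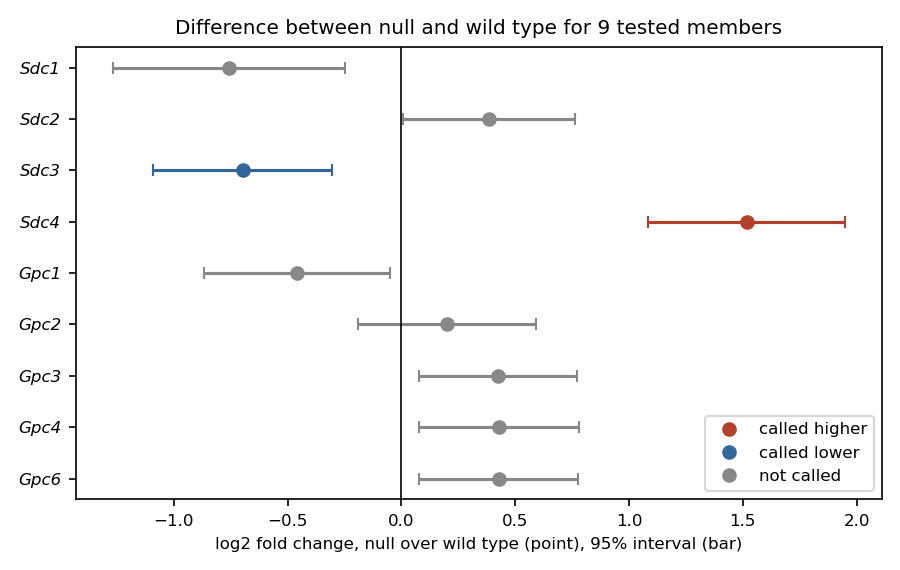
Log2 fold change of null over wild type (point, horizontal axis) with its 95% interval (bar) for the 9 tested members, from edgeR's quasi-likelihood fit on 4 null and 3 wild-type libraries. Sdc4 at 1.52 (red) and Sdc3 at -0.70 (blue) passed the adjusted threshold of 0.05, and the interval of Gpc2 alone includes 0. The intervals are for single genes, not adjusted for the number of genes tested, so an interval without 0 is not a call.

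Of the 9 tested members, 1 was called higher and 1 lower. Over all 14290 genes tested, 4.11% were called higher and 2.13% lower (6.24% in either direction), so counts of 1 in 9 are too few to set the family apart. Groups did not overlap for 7 of the 9 members, 4 with the null above (Sdc4, Gpc3, Gpc4 and Gpc6) and 3 with it below (Sdc1, Sdc3 and Gpc1). Over all tested genes, 21.8% had groups without overlap, 11.6% with the null above and 10.3% with it below. At an unadjusted p under 0.05 stood 8 of the 9 members, all except Gpc2, against 24.4% of all tested genes. The members' median log2 fold change was 0.38, and that of all tested genes was 0.02. These counts describe the family and carry no test, since its members were chosen with results of these data known. In whole canals, more cells of a type and more RNA per cell cannot be told apart.

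**Figure D3:**
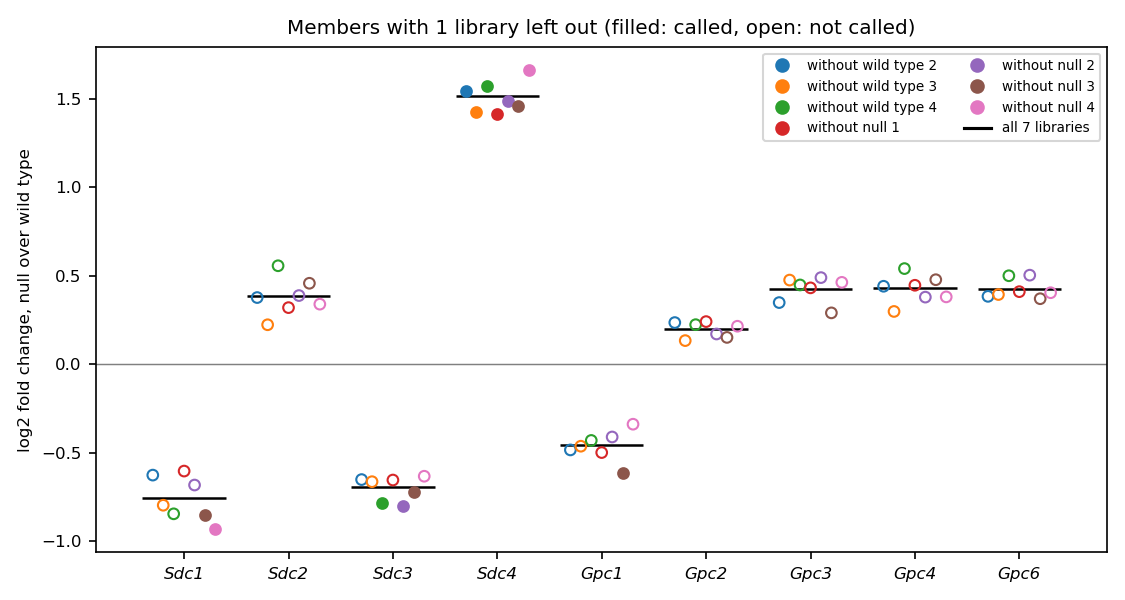
Log2 fold change of null over wild type (vertical axis) for the 9 tested members with each of the 7 libraries left out in turn (coloured points, filled where the edgeR adjusted p was under 0.05), beside the value from all libraries (black line). Sdc4 keeps its call at 1.42 to 1.66, Sdc3 loses it in 4 of the 7 fits, and Sdc1 and Gpc1 gain it in 2 and 1.

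Levels of different genes were compared per length, as CPM per kilobase of the longest annotated transcript. In wild-type canals Gpc3 led with 380.3 ± 33.6 (SD, n = 3), followed by Sdc4 at 36.1 ± 4.61, Sdc2 at 16.4 ± 4.07, Gpc4 at 10.8 ± 2.04 and Gpc1 at 9.73 ± 0.476. Below them came Sdc1 at 6.98 ± 1.10, Gpc6 at 3.76 ± 0.385, Sdc3 at 3.13 ± 0.282 and Gpc2 at 1.70 ± 0.164. With this length, neighbours in the order were separate in their ranges over the 3 libraries except Sdc2 with Gpc4 and Gpc4 with Gpc1. In null canals the first 5 places, again by the longest transcript, were in the same order, with Gpc3 at 516 ± 82.0 (SD, n = 4), Sdc4 at 104 ± 23.5 and Sdc2 at 21.7 ± 2.67. Gpc6 (5.11 ± 0.466) stood above Sdc1 (4.19 ± 1.316) there, and Gpc2 (1.98 ± 0.225) beside Sdc3 (1.97 ± 0.389). The ranges of both of these pairs overlapped, as did those of Gpc1 and Gpc6. Which transcripts these canals express was not known, and below the first 3 places (Gpc3, Sdc4 and Sdc2 with each of 3 lengths in both genotypes) the order of the means turned with the length. In wild type Sdc3 stood above Gpc6 by the union of exons (2.60 against 2.43) and by coding length (11.8 against 9.21), and by coding length Gpc1 (24.3) and Sdc1 (23.6) stood above Gpc4 (17.1). In the null Sdc1 stood above Gpc6 by the union of exons (3.47 against 3.30) and by coding length (14.2 against 12.5).

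The summed level per length of the 4 syndecans was 146, 144, 138 and 99.9 in null replicates 1 to 4 and 65.8, 53.0 and 69.2 in wild-type replicates 2 to 4. Each null sum thus exceeded each wild-type sum, and Sdc4 made up most of the difference. Sdc4 was 78.2% ± 6.03 of the syndecan sum in the null (SD, n = 4) and 57.7% ± 0.583 in wild type (SD, n = 3). The share of Sdc2 was 16.9% ± 4.56 against 25.99% ± 3.25, that of Sdc1 3.37% ± 1.66 against 11.3% ± 1.96, and that of Sdc3 1.504% ± 0.264 against 5.09% ± 1.01. The summed level of the 6 glypicans was 511, 499, 668 and 502 in null replicates 1 to 4 and 367, 423 and 429 in wild-type replicates 2 to 4. Gpc3 made up 94.6% ± 0.705 of that sum for null (SD, n = 4) and 93.6% ± 0.838 for wild type (SD, n = 3). Syndecans together formed 19.6% ± 3.17 of the family for null and 13.4% ± 2.07 for wild type (SD, n = 4 and 3). These shares depend on the transcript length used, and with coding length Sdc4 formed 33.1% of the null family and 18.2% of the wild-type one, against 15.4% and 7.72% with the longest transcript.

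**Figure D4:**
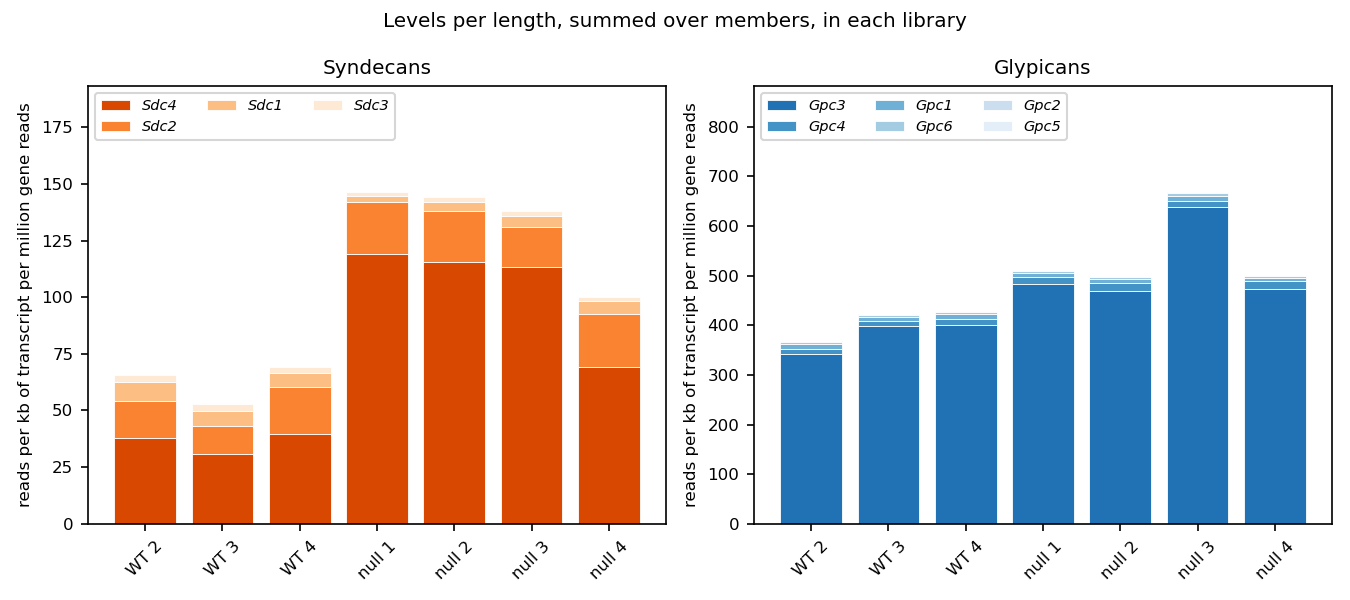
Stacked levels per length (CPM per kilobase of the longest transcript, vertical axis from 0) of the 4 syndecans (left) and 6 glypicans (right) in each of 3 wild-type (WT) and 4 null libraries. Syndecan sums are 53.0 to 69.2 in wild type and 99.9 to 146 in the null, mostly through Sdc4, and Gpc3 fills nearly the whole glypican bar in every library.

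The cell types of the canal were set beside these values. Of all tested genes, 4.11% were called higher and 2.13% lower. Of the 7 endothelial and endocardial markers, 2 were called higher (Pecam1 and Tie1) and 0 lower. Without a call, the log2 fold changes of Cdh5, Tek and Emcn were above 0 and those of Nfatc1 (-0.09) and Npr3 (-0.18) below it. The summed level of these markers was 347 to 389 CPM in null and 260 to 292 CPM in wild-type libraries. Of the 6 cushion mesenchyme markers, 3 were called lower (Twist1, Sox9 and Postn) and 0 higher, with sums of 71.6 to 103 against 127 to 258 CPM. Snai2 (0.17), Prrx1 (-0.07) and Prrx2 (-0.37) were not called. Sox9 was the largest part of the mesenchymal sum, with 185 of 258 CPM in wild-type replicate 4. Of the 7 canal muscle markers, 1 was called higher (Myh7), with 4 log2 fold changes above 0 and 3 below it. Of the 5 proepicardial and epicardial markers 0 were called, with 3 above 0 and 2 below it. Of the 5 blood markers 0 were called, and all 5 were below 0 (median -0.67). Blood markers summed to 5602 to 14510 CPM in null and 9329 to 22038 CPM in wild-type libraries. Canal muscle summed to 13327 to 16078 CPM in the null and 12668 to 14663 CPM in wild type, and proepicardial markers to 62.4 to 78.8 against 47.7 to 67.8 CPM. The endothelial and mesenchymal sums, like the 7 members named above, did not overlap between genotypes, and their part in the members' values was not tested.

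Among the tested genes compared, Sdc4 was matched most closely by Selenbp1, Tpd52 and Mlph, and Sdc3 by Nrp, Taf4b and Cables2. Small RNAs and genes with provisional symbols (such as Gm, Rik or BC names) were passed over. Likeness was the root mean square difference between TMM-scaled log2 CPM profiles over the 7 libraries, each centred on its own mean. It was 0.09 for Selenbp1, 0.10 for Tpd52 and 0.12 for Mlph from Sdc4, and their log2 fold changes of 1.47, 1.48 and 1.38 were called (edgeR adjusted p = 0.0056, 0.000911 and 0.0284). For Sdc3 the differences were 0.08 (Nrp), 0.09 (Taf4b) and 0.09 (Cables2), and their log2 fold changes of -0.64, -0.67 and -0.60 were not called (adjusted p = 0.161, 0.132 and 0.0797). The profiles kept the difference between genotypes, so log2 fold changes near those of Sdc4 and Sdc3 follow from the choice of genes. Among so many genes some profiles are close in 7 libraries, so these are descriptions only.

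The lists around the members held the genes that build, supply and edit the heparan sulfate chain, other core proteins that carry it, and cytoplasmic partners of the syndecan tail. Of these 58 genes in 7 lists, 50 were tested, 1 was called higher and 0 lower. Of all tested genes 4.11% and 2.13% were called, so these counts do not set the lists apart. At an unadjusted p under 0.05 stood 8 of the 50, against 24.4% of all tested genes. Their median log2 fold change was -0.01, with 25 values above 0.

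The called gene was Tiam1, in the list of cytoplasmic partners of syndecans. TIAM1 is an exchange factor that activates the small GTPase RAC1 and can bind the syndecan tail. Tiam1 had 24.3, 25.8, 23.3 and 17.3 CPM in null replicates 1 to 4 and 11.5, 15.0 and 13.6 CPM in wild-type replicates 2 to 4. All 4 null libraries lay above the wild-type ones, and null replicate 4 was again the lowest of the null group, as for Sdc4. The log2 fold change was 0.75 (SE 0.185, edgeR adjusted p = 0.0363). The call was lost (adjusted p = 0.0759 to 0.191) when null replicate 1, null replicate 2 or any 1 of the 3 wild-type libraries was left out. It was also lost with the Y-linked covariate (0.0564) and with null replicate 2 and wild-type replicate 4 both left out (log2 fold change 0.71, adjusted p = 0.147). The 8 genes of this list had a median log2 fold change of 0.24, and 1 was called.

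In the other lists 0 genes were called. The chain is started on a linker sugar, and of the 6 linker genes those with the highest mean CPM, the rule for naming genes of a list without a call, were Fam20b, a kinase of the linker xylose (log2 fold change -0.21), and B3gat3, which adds the linker's last sugar (-0.09). EXT1, a polymerase subunit that lengthens the chain, and EXTL3, which starts it, had -0.30 for both Ext1 and Extl3 (SE 0.167 and 0.224). Among 16 sulfotransferases and the epimerase, of which 11 were tested, the 6-O-sulfotransferases Hs6st2 and Hs6st1 had -0.30 (SE 0.134) and -0.13 (SE 0.209). The 7 genes that supply sulfate donor and sugars were led by Ugp2 (-0.17) and Ugdh (0.09), which make the nucleotide sugars.

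Of 12 genes that edit or release the chains at the surface, 9 were tested. Those with the highest mean CPM were Adam10, a protease that sheds syndecans (-0.25, SE 0.143), and Furin, a convertase that cleaves glypicans and other precursors. Furin had 52.7 ± 10.3 CPM in the null (SD, n = 4) and 76.4 ± 9.85 CPM in wild type (SD, n = 3), for a log2 fold change that was -0.55 (SE 0.174, edgeR adjusted p = 0.0815). It was called without null replicate 3 (-0.71, adjusted p = 0.0121) and by DESeq2 (-0.56, 0.0314). The other heparan sulfate proteoglycans of the cell surface and basement membrane were led by Col18a1 (-0.17, SE 0.136) and Agrn (0.03, SE 0.19), with 0 of 4 called.

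**Figure D5:**
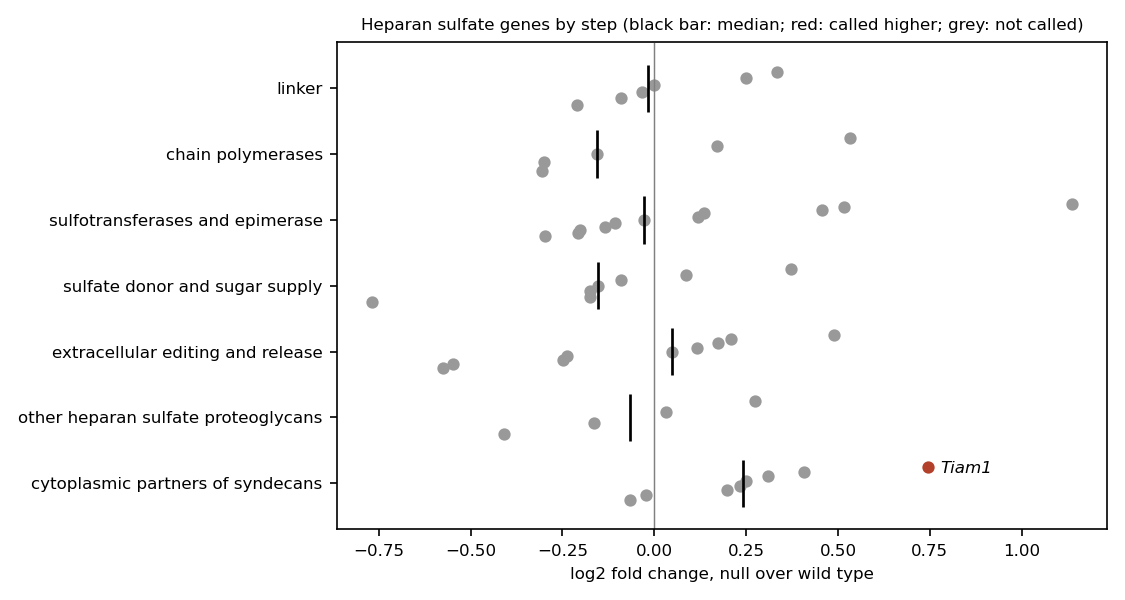
Log2 fold change of null over wild type (horizontal axis) for the 50 tested genes of 7 heparan sulfate lists (rows), each point 1 gene and each black bar the list's median. Tiam1 at 0.75 (red) was the called gene, and the medians of the lists lie between -0.15 and 0.24.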

How the data were processed

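The deposited files hold whole-number read counts per gene symbol, 1 file per library, made by the authors from unstranded single reads of 50 nt. RNA was depleted of ribosomal RNA and amplified for 8 PCR cycles, per the labels' protocols. TopHat2 2.0.13, HTSeq and SAMtools with mouse build mm9 were named, per the submitters' processing notes, and no source used here gives the annotation or the counting settings. The 5 summary lines of each file entered neither library sizes nor tests. They held reads in no gene (7.31% to 14.2%), in several genes (1.46% to 1.69%) and with several alignments (9.08% to 13.8%).

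The test was edgeR 4.0.16's quasi-likelihood test (R 4.3.3) with TMM scaling, the default count filter (minimum count 10) and a single genotype term, fitted to the 7 libraries (5 residual degrees of freedom). Benjamini-Hochberg adjustment ran over all 14290 tested genes, and a gene was called under 0.05. SE is the size of the log2 fold change over the root of its F statistic. The 95% intervals use the fit's degrees of freedom and are not adjusted for the number of genes tested. Log2 profiles used TMM scaling and a prior count of 2, and small RNAs and provisional symbols were passed over as nearest profiles. The scripts were tested on simulated data. Lengths are from GENCODE vM21. Alternatives were RLE and upper-quartile scaling, other filters, DESeq2 1.42.0, limma-voom 3.58.1, a replicate block, a Y-linked covariate and left-out libraries. Named genes were the members, called list genes (or the 2 of a list with the highest mean CPM over the 7 libraries, without length correction) and the 3 nearest profiles of each called member. Members and lists were chosen with earlier results of these data known. Reads after PCR are not independent molecules, so count limits cover counting error only.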

Additional observations from a re-analysis of the deposited data

Results flagged for a closer look

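In 5 of 27 sets of null values examined, 1 null library lay far from the other 3, by a gap past Dixon's critical share of the group's range. Chance alone gives this in about 1 in 20 groups, and the 5 are not independent. The glypican sum is mostly Gpc3, so it restates the values of Gpc3. The share of Sdc4 in the syndecan sum is computed from Sdc4 and the other syndecans, so it is not separate from the Sdc4 values. Sdc4 was 170.0 CPM in null replicate 4, against 279 to 292 CPM in the other null libraries. The share of Sdc4 in the syndecan sum was 69.2% there, against 80.1% to 82.2%. Sdc2 was 62.5 CPM in null replicate 3, against 79.2 to 82.6 CPM. Gpc3 was 1415 CPM in null replicate 3, against 1039 to 1072 CPM. The summed glypican level per length was 668 in the same library, against 499 to 511. Null replicate 4 had the most Y-linked reads (169 CPM) and epithelial marker reads (16.03 CPM) of the 7 libraries, and their part in its Sdc4 level was not tested.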

How the results depend on the processing

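With 16 alternatives, Sdc4 was called higher in all 16 (log2 fold change 1.39 to 1.66), and none of the 9 tested members changed sign. Sdc3 was not called with the Y-linked covariate (-0.54, adjusted p = 0.151) or with null replicate 2 and wild-type replicate 4 both left out (-0.88, 0.0553). DESeq2 called Sdc1 (-0.77). Leaving out 1 library gave -0.80 to -0.63 for Sdc3, -0.93 to -0.60 for Sdc1 and -0.61 to -0.34 for Gpc1. Members called lower numbered 2 with DESeq2, 0 with the covariate, 0 without both libraries and 0 to 3 with 1 library left out. The partner list had 0 called with the covariate or without both libraries, and 0 to 1 with 1 left out, and the editing list had 1 called lower with DESeq2 and 0 to 1 with 1 left out. Over all genes, 1015 were higher and 811 lower with DESeq2, 368 and 106 with the covariate, and 298 and 123 without both libraries. With 1 library left out they were 210 to 946 and 46 to 652. Some uncalled values changed sign: Agrn was -0.18 without both libraries and -0.0058 with limma-voom, a tool added after the data were seen, and with the covariate B3gat3 was 0.046, Hs6st1 0.061 and Ugdh -0.013. With 1 library left out, Agrn ranged from -0.11 to 0.12, B3gat3 from -0.193 to 0.015, Hs6st1 from -0.316 to 0.0072 and Ugdh from -0.066 to 0.301. With coding length, Gpc3 was 50.8% of the family in the null and 59.2% in wild type, and Sdc4 33.1% and 18.2%. The cause was not tested. A replicate block over numbers 2 to 4 gave 761 higher and 578 lower genes, Sdc4 at 1.39 (adjusted p = 0.00283) and Sdc3 at -0.66 (0.0371). Without the block, the same libraries (null replicate 1 left out) gave 374 called genes, against 1339 with it. Same-numbered libraries deviated with correlations over genes of -0.07 (replicates 2), 0.26 (replicates 3) and 0.17 (replicates 4). The values for replicates 3 and 4 were the highest of any pair, and crossing those numbers gave -0.23 both ways. Null replicate 2 correlated best with wild-type replicate 4 (0.14). The labels state no pairing, so the main test had no replicate term, and whether same-numbered pools share an effect was not settled. Depth limits Gpc5 alone among the members.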
